A study of Caenorhabditis elegans with 10 samples.

Results

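The genes named *clec* encode proteins with C-type lectin-like domains, folds that in many animals bind sugars on cell surfaces and secreted glycoproteins. In *C. elegans* they form one of the largest gene families. Many members are made in the intestine, carry a signal for secretion and change their mRNA level when animals meet bacteria, so the family is often read as part of innate immune defence, although some members act elsewhere, for example in neurons. Several are controlled by the p38 kinase PMK-1, the insulin-regulated factor DAF-16 and other stress regulators of the intestine.

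A member was every gene whose name begins with *clec-* and that reached 1 FPKM (reads per length of transcript and per total of reads, a level that can be compared between genes) in any condition, with the transcript of the highest mean FPKM standing for its gene. By this rule 56 of 239 *clec* genes were members, among 10509 of 19985 genes that reached the same level. The rule uses no difference between conditions, but it takes the highest of the 5 values. A gene of low level can therefore pass through the conditions where it is high. *clec-4*, *clec-7*, *clec-53*, *clec-54*, *clec-57*, *clec-166*, *clec-178* and *clec-187* passed only at 20 °C and 10 °C. *clec-205* passed only at 20 °C, *clec-139* only at 10 °C, and *clec-137*, *clec-145* and *clec-221* only at 4 °C. Counts of low members called lower or higher depend in part on this rule, which was the same for all genes.

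The study followed mRNA in N2 wild-type *C. elegans* through a cooling scheme that ends in a dormant state at 4 °C. All animals were synchronized, were raised on OP50 bacteria at 20 °C to the first day of adulthood and were extracted whole. They were collected at that point (20 °C), after a short adaptation at 10 °C, or, after the same adaptation, on day 1, day 3 or day 5 of a stay at 4 °C, with 2 samples for each of the 5 conditions, 10 in all. The labels disagree on the time at 10 °C, 2 hours in the protocol and 3 in the treatment field, and the treatment field of the samples titled day 5 reads 3 days, so the titles were followed. The animals at 4 °C were also older in days than those at 20 °C, and cold and elapsed time cannot be told apart.

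The deposited table holds 1 value per transcript and condition, taken to pool both samples, so no spread between replicates exists and no test was made. A change is the log2 ratio of FPKM + 0.1, which understates the changes of low genes, and it was called when it reached 2-fold. The limits given are 95% Wilson limits on the reads behind a value and cover counting error only, not variation between cultures. Between 70741449 and 85103831 reads were counted on transcripts in each condition, those shared by transcripts of a gene more than once, so that 3 reads on a transcript of 1 kb corresponded to 0.0353 to 0.0424 FPKM. In pooled whole animals, fewer cells of a type and less RNA per cell cannot be told apart.

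Across the whole scheme, the *clec* mRNAs were lower in the cold far more often than higher. From 20 °C to 4 °C day 5, 29 of the 56 members (51.8%) were at least 2-fold lower and 4 (7.14%) at least 2-fold higher, beside 16.7% and 5.4% of all genes at this level. The members' median log2 ratio was -1.02, with a range from -4.58 to 1.94, beside a median of -0.11 over all genes. Relative to that median of all genes, 27 members (48.2%) were 2-fold lower and 4 higher (7.14%), beside 15.2% and 6.3% of all genes. With day 3 as the end point, an alternative added after seeing the data, 25 members (44.6%) were 2-fold lower and 4 higher (7.14%), beside 12.3% and 7.46% of all genes, and all of these members were also called at day 5.

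Members of low level made up most of the count of lower genes. All members that passed 1 FPKM only at 20 °C or 10 °C, named above, are in it. Of the 42 members with a maximum of 1 to 10 FPKM, 26 (61.9%) were 2-fold lower, beside 30% of all genes in that band. Of the 14 members that reached 10 FPKM, 3 (21.4%) were 2-fold lower, beside 6.77% of all genes in that band. In both bands the members' share stood above that of the band, and genes of low level were called lower more often in general. Over all 239 *clec* genes, without the limit of 1 FPKM, 43 (18%) were 2-fold lower, beside 13.5% of all genes, and their median log2 ratio was -0.03, beside -0.06.

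**Figure D1:**
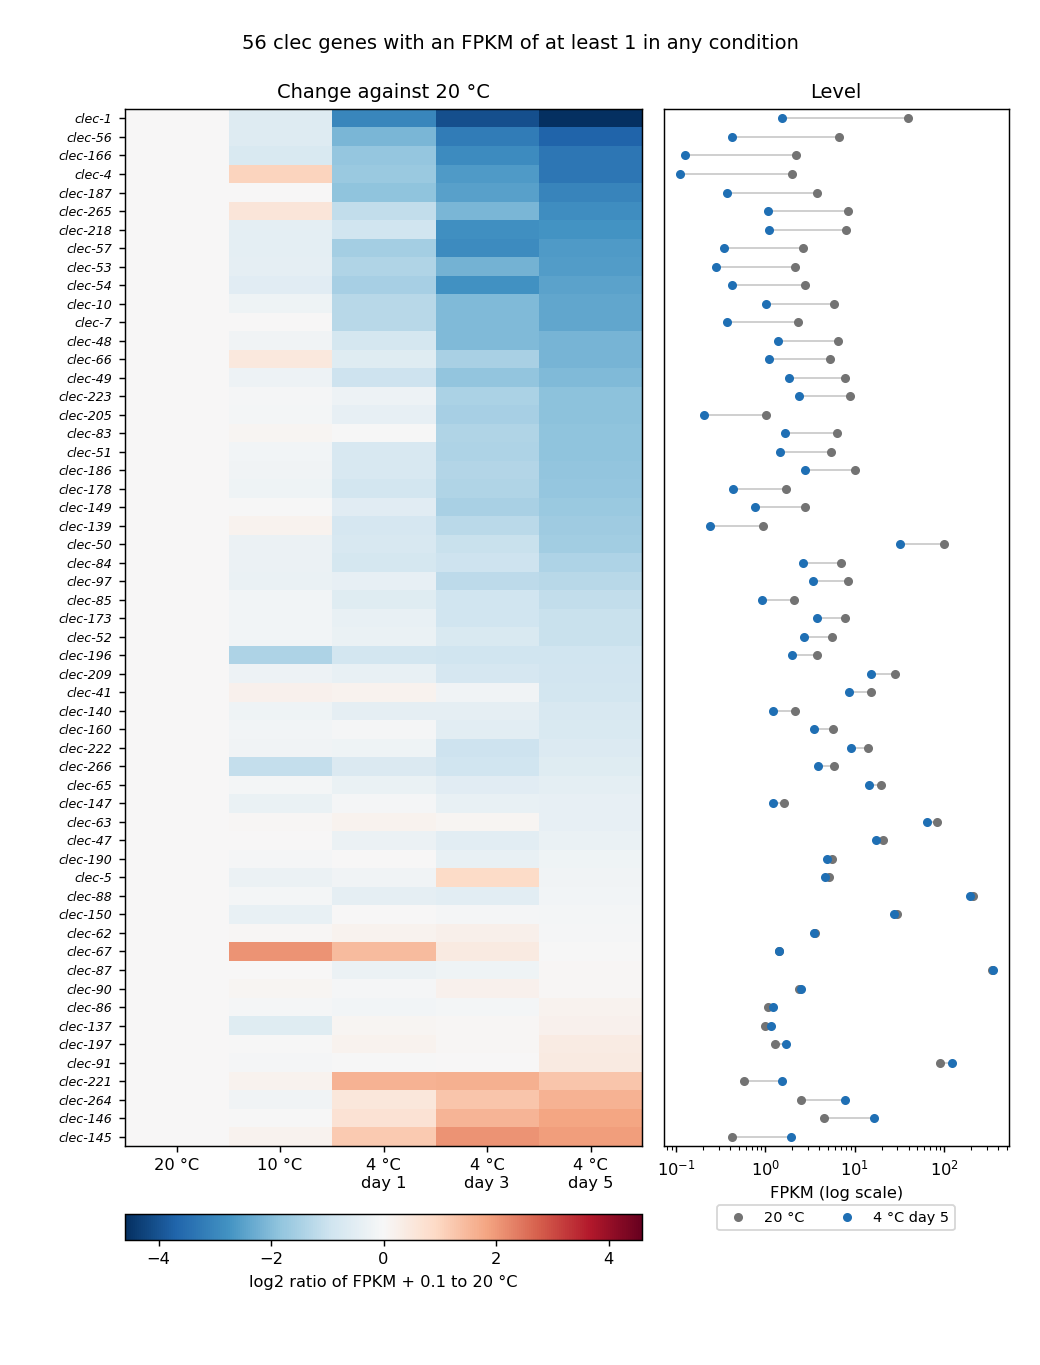
Left, log2 ratio of FPKM + 0.1 to 20 °C for the 56 *clec* genes in the 5 conditions, ordered by the change at 4 °C day 5, with blue lower and red higher. Right, the FPKM of each gene at 20 °C (grey) and 4 °C day 5 (blue) on a log axis. The blue block of 29 genes at least 2-fold lower at day 5 occupies the upper part, the 4 genes at least 2-fold higher are at the bottom, and the genes of highest level (*clec-87* and *clec-88*) lie among those with little change.

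Most 2-fold lower calls came in 2 of the 4 steps, on entry into 4 °C and from day 1 to day 3. The steps differ in length, with hours at 10 °C and days at 4 °C. From 20 °C to 10 °C, 2 members were 2-fold lower (3.57%, beside 0.933% of all genes) and 2 were higher (3.57%, beside 1.27%). On entry into 4 °C, from 10 °C to day 1, 10 members were lower (17.9%, beside 5.42%) and 2 higher (3.57%, beside 5.49%), with a median log2 ratio of -0.26 beside -0.09 over all genes. From day 1 to day 3, 11 were lower (19.6%, beside 4.65%) and 1 higher (1.79%, beside 1.57%), with a median of -0.43 beside -0.03. From day 3 to day 5, 1 member was lower (1.79%, beside 4.98%) and 0 were higher (beside 0.152%), with a median of -0.21 beside 0.02. Among genes with a maximum of 1 to 10 FPKM, 8 of 42 members (19%) were 2-fold lower on entry, beside 10.2% of all genes in that band, and 10 of 42 (23.8%) from day 1 to day 3, beside 7.02%. Of the members lower on entry, *clec-4*, *clec-7*, *clec-57*, *clec-166* and *clec-187* reached 1 FPKM only at 20 °C and 10 °C. The steps share conditions with their neighbours, so their values are not independent of each other.

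Seen gene by gene, 20 members (35.7%) had a lower value at each of the 4 steps, beside 9.42% of all genes. A higher value at each step was seen in 0, beside 3.46%. These counts use the order of the values alone, and single steps could lie within counting error. Of the 20, only *clec-1* and *clec-50* had counting limits apart at every step, and those of *clec-178* overlapped at each. The highest of the 5 values was at 20 °C for 31 members (55.4%, beside 30.7%), and the lowest was at 4 °C day 5 for 34 (60.7%, beside 31.8%). These patterns were also more frequent among genes of low level in general. In the band of 1 to 10 FPKM, 40.5% of the 42 members had a lower value at each step, beside 14.5% of all genes there, 59.5% were highest at 20 °C, beside 38.7%, and 66.7% were lowest at day 5, beside 45.4%. Among the 29 members that ended 2-fold lower, the largest single fall came on entry into 4 °C for 13 genes, from day 1 to day 3 for 15, and from day 3 to day 5 for *clec-50* alone. It came in the step to 10 °C, the shortest of the 4, for 0 of them.

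**Figure D2:**
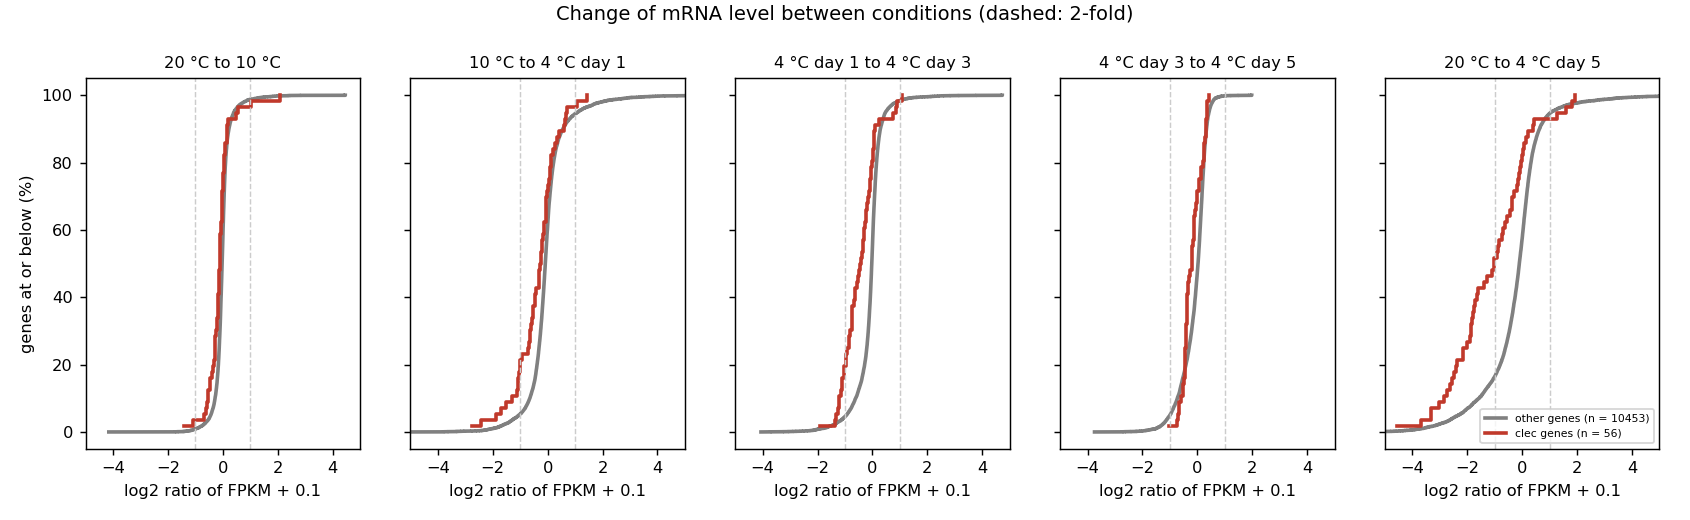
Share of genes (y axis, percent) at or below each log2 ratio of FPKM + 0.1 (x axis, shown from -5 to 5) in each of the 5 comparisons, for the 56 *clec* genes (red) and the 10453 other genes past the same level (grey), with dashed lines at 2-fold. The red line lies left of the grey one over the lower values of each panel but that of day 3 to day 5, and the gap is widest from 20 °C to 4 °C day 5, where the medians were -1.02 for the *clec* genes and -0.11 for all genes.

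*clec-1*, on chromosome V (chrV:5700154-5701080 in WBcel235, 4 exons), showed the largest fall of the family. It measured 39.1, 25.7, 4.75, 2.26 and 1.54 FPKM at 20 °C, 10 °C and 4 °C day 1, day 3 and day 5, from 2395 reads at the start to 84 at the end, and values below are given in this order of conditions. Each value was lower than the one before it, and the drop on entry into 4 °C was the steepest. The log2 ratio was -2.41 from 10 °C to day 1 (limits -2.64 to -2.18) and -4.58 from 20 °C to day 5 (-4.92 to -4.23), a 25.4-fold lower FPKM. At 20 °C this gene stood among the 10 members of highest level, and at day 5 it had no more mRNA than many members of low level.

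Another 9 members were at least 2-fold lower on entry into 4 °C, and all of them were also 2-fold lower from 20 °C to day 5. *clec-56* (chrV:14474399-14476794) measured 6.64, 4.39, 1.47, 0.623 and 0.426 FPKM, and the log2 ratio from 20 °C to day 5 was -3.68 (-4.14 to -3.20). *clec-166* (chrIV:1249192-1251342) measured 2.18, 1.31, 0.565, 0.205 and 0.126 FPKM (-3.33, -3.88 to -2.68), the last value from 13 reads. Both had a lower value at every step and had already lost part of their level at 10 °C. The counting limits of day 3 and day 5 overlapped for both.

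*clec-187* (chrIV:12869270-12871495) measured 3.74, 3.77, 0.962, 0.578 and 0.372 FPKM, and *clec-7* (chrV:7328392-7330002) 2.32, 2.36, 0.900, 0.493 and 0.367. Both were level between 20 °C and 10 °C, where the limits of their log2 ratios spanned 0, and dropped at 4 °C, with log2 ratios of -1.86 (-2.30 to -1.42) and -1.30 (-1.70 to -0.90) on entry. *clec-10* (chrII:402678-404180) measured 5.84, 5.14, 2.36, 1.36 and 1.02 FPKM, and *clec-57* (chrV:14469231-14472448) 2.61, 1.86, 0.814, 0.261 and 0.341. For *clec-57* the values of day 3 and day 5 did not differ beyond their counting limits.

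At 10 °C, 5 members (8.93%, beside 12.3% of all genes) were higher than at 20 °C with counting limits that did not overlap, and 15 (26.8%, beside 17.8%) were lower by the same measure. The 5 were *clec-4*, *clec-265*, *clec-66*, *clec-67* and *clec-41*. Of these, *clec-4*, *clec-265* and *clec-66* were at least 2-fold below their starting level at day 5. *clec-4* (chrII:12578331-12581113) measured 1.97, 4.16, 0.528, 0.244 and 0.109 FPKM, from 496 reads at 10 °C to 64 at day 1 and 11 at day 5. Its log2 ratio was 1.04 to 10 °C (0.74 to 1.35) and -2.76 on entry into 4 °C (-3.18 to -2.34), the largest fall of any member in a single step, and -3.31 from 20 °C to day 5 (-3.87 to -2.63). *clec-265* (chrX:3031783-3033117) measured 8.32, 12.2, 3.72, 1.84 and 1.05 FPKM, and *clec-66* (chrII:12904398-12906644) 5.23, 7.44, 3.55, 1.82 and 1.10. These 2 peaked at 10 °C by less than 2-fold (log2 ratios of 0.54 and 0.50) and were 2-fold lower after 1 day at 4 °C.

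*clec-67* (chrIV:3922165-3925039), a gene often measured in infection studies and known as a target of PMK-1, had the largest increase of any member at 10 °C. It measured 1.43, 6.30, 4.11, 1.94 and 1.42 FPKM, with log2 ratios of 2.07 to 10 °C (1.77 to 2.37), -0.60 on entry into 4 °C (-0.82 to -0.39) and -1.04 from day 1 to day 3. The pulse was over by day 5, where the ratio to 20 °C was -0.01 (-0.42 to 0.41). Its 2 annotated transcripts gave log2 ratios of 2.07 and 2.05 to 10 °C, but they share nearly all of their reads.

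*clec-266* (chrX:6617393-6622915) and *clec-196* (chrIV:17276956-17277748) were the 2 members at least 2-fold lower at 10 °C. *clec-266* measured 5.80, 2.65, 3.59, 3.05 and 3.90 FPKM, with a log2 ratio of -1.10 at this step (-1.43 to -0.76). *clec-196* measured 3.82, 1.37, 2.10, 1.98 and 1.97 FPKM from no more than 61 reads per condition, with a log2 ratio of -1.42 (-2.31 to -0.51). Both had their lowest value at 10 °C, but for *clec-196* its counting limits overlapped those of each value at 4 °C. For *clec-266* the limits of 10 °C overlapped those of day 3. The annotated transcripts of each gene had ratios of -1.03 to -1.11 for *clec-266* and -1.42 to -1.48 for *clec-196* at that step. Transcripts of a gene share reads, so this is no separate support.

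Some members not called on entry into 4 °C were 2-fold lower between day 1 and day 3. They are no separate set, since *clec-1*, *clec-56*, *clec-57* and *clec-166* were called lower in both steps. *clec-218* (chrV:8307942-8310766) measured 7.98, 5.82, 4.22, 1.04 and 1.10 FPKM, with a log2 ratio of -1.92 from day 1 to day 3 (-2.30 to -1.54). It had already fallen in the steps to 10 °C and to day 1 (log2 ratios of -0.45 and -0.46), with counting limits apart. *clec-223* (chrV:11273148-11278161) measured 8.94, 8.71, 7.68, 3.23 and 2.34 FPKM, with a ratio of -1.22 at that step (-1.38 to -1.07). *clec-83* (chrIV:2839371-2841472) measured 6.27, 6.59, 6.26, 2.35 and 1.66 FPKM, with a ratio of -1.37 (-1.73 to -1.01). All 3 kept more than 4 FPKM through the first day at 4 °C, and for *clec-83* the first 3 values lay within each other's counting limits.

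*clec-48* (chrV:18158026-18159614) measured 6.48, 5.73, 3.65, 1.51 and 1.38 FPKM. *clec-54* (chrV:14476903-14479003) measured 2.80, 1.91, 0.914, 0.322 and 0.422 FPKM, and *clec-53* (chrI:3871474-3873402) 2.13, 1.59, 0.745, 0.400 and 0.279. The values of all 3 were lower at each step up to day 3. In the step to 10 °C the counting limits were apart for *clec-54* alone. *clec-49* (chrV:19748961-19751226), which is known to be needed for resistance to the bacterium *Serratia marcescens*, measured 7.76, 6.54, 3.95, 2.14 and 1.83 FPKM, a log2 ratio of -2.02 from 20 °C to day 5 (-2.36 to -1.69). *clec-205* was the member called from the fewest reads, 45 at 20 °C and 8 at day 5 (-1.88, limits -2.85 to -0.78).

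**Figure D3:**
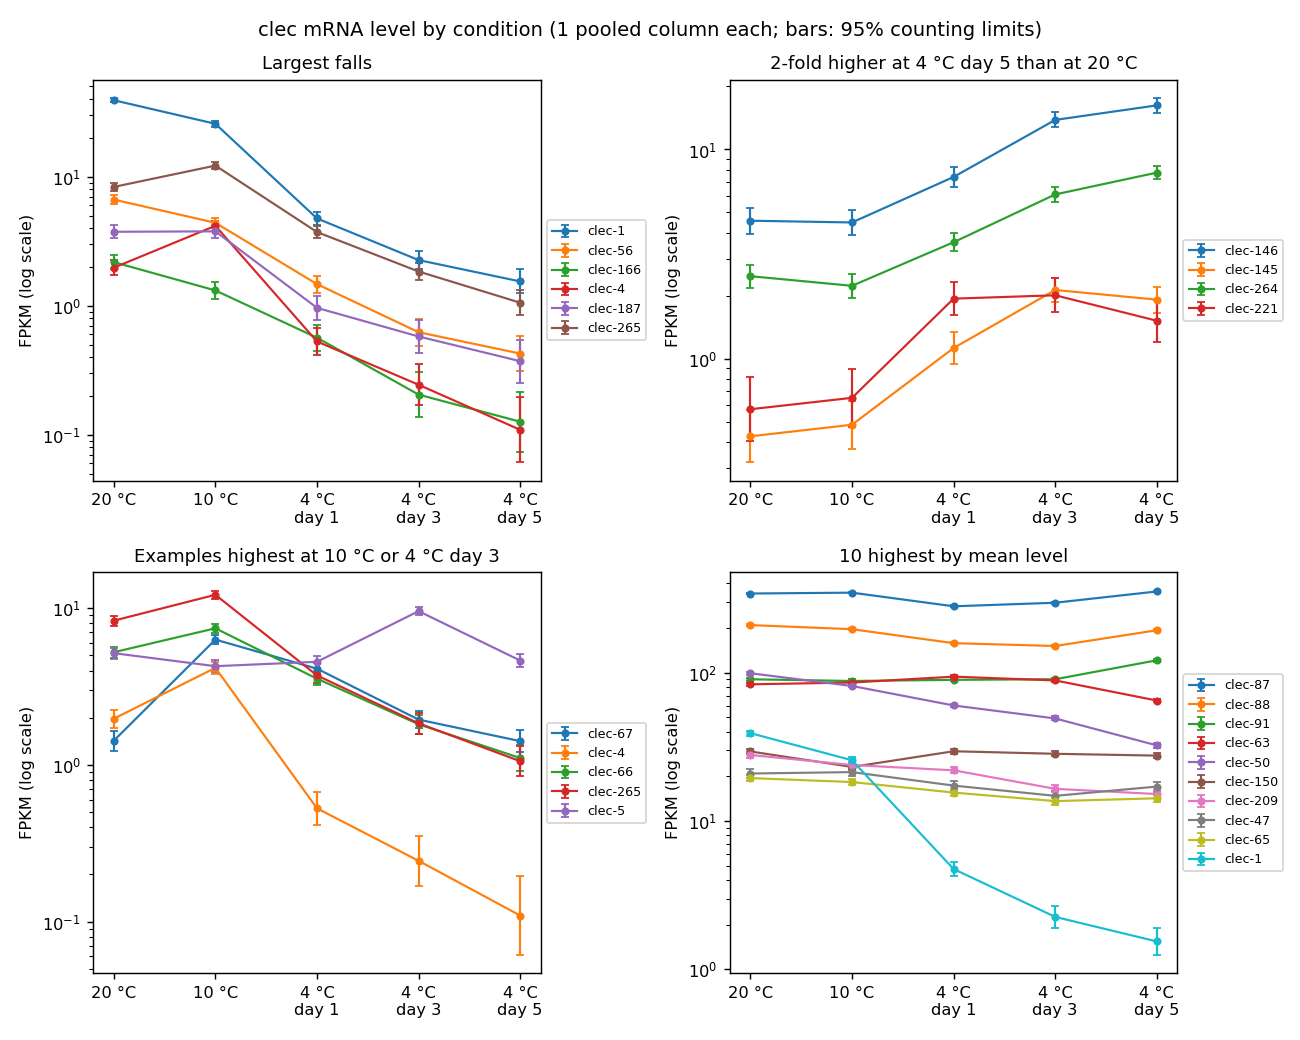
FPKM (log axis) of selected *clec* genes in the 5 conditions, 1 pooled value each, with bars for 95% counting limits. Upper left, the 6 genes with the largest falls from 20 °C to 4 °C day 5, among them *clec-1* from 39.1 to 1.54 FPKM; upper right, the 4 genes at least 2-fold higher; lower left, examples with a peak at 10 °C or at 4 °C day 3; lower right, the 10 genes of highest mean level, of which *clec-50* and *clec-1* fell by at least 2-fold.

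The genes with the most mRNA changed little. *clec-87* (chrI:10184462-10185520) measured 342, 346, 280.2, 296 and 353 FPKM, *clec-88* (chrII:6365722-6367002) 209, 196, 158, 151 and 193, and *clec-91* (chrI:9126140-9127101) 90.3, 87.9, 89.5, 90.3 and 121. *clec-87* and *clec-88* dipped at day 1 and day 3 and were back near their starting FPKM at day 5. *clec-91* was flat until day 3 and then higher by a log2 ratio of 0.42 (0.35 to 0.49). As a share of the summed FPKM of all genes, the 3 made up 0.139, 0.143, 0.109, 0.107 and 0.111%. On this scale day 5 stayed below 20 °C. The summed FPKM of these 3 was 641, 631, 528, 538 and 667, while that of the other 53 members was 531, 481, 403, 339 and 284. The 3 thus made up 54.7% of the summed *clec* level at 20 °C and 70.2% at day 5, and the other 53 at day 5 came to 53.4% of their level at 20 °C. Of the exon bases of *clec-87*, 14.4% overlap the neighbouring gene *iars-2*, and reads there cannot be assigned with certainty.

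Next in level, *clec-63* (chrII:12895638-12897446) measured 83.5, 85.8, 94.01, 88.7 and 64.9 FPKM, and *clec-50* (chrV:19752399-19755368) 99.1, 81.3, 60.1, 49.1 and 32.4. *clec-50* was above *clec-63* at 20 °C and below it at each later condition, and its decline was spread over all 4 steps, with a total log2 ratio of -1.61 (-1.70 to -1.52). *clec-150* measured 29.4, 23.2, 29.5, 28.4 and 27.6 FPKM, *clec-209* 27.9, 23.9, 21.97, 16.5 and 15.2, *clec-47* 20.9, 21.4, 17.3, 14.8 and 17.1, and *clec-65* 19.5, 18.3, 15.6, 13.6 and 14.2. In this order of mean level the counting limits of neighbours did not overlap in any condition between *clec-87*, *clec-88* and *clec-91*. They overlapped in 2 of 5 conditions between *clec-91* and *clec-63* and between *clec-150* and *clec-209*, and in 3 between *clec-209* and *clec-47* and between *clec-47* and *clec-65*.

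In all, 19 members changed by less than 2-fold in each of the 5 comparisons. They include 8 of the 10 members of highest mean level, *clec-1* and *clec-50* being the other 2. *clec-41* (chrV:13134903-13138101), whose product has been reported to act against the bacterium *Bacillus thuringiensis*, is also one of them. It measured 15.3, 17.6, 17.1, 13.7 and 8.55 FPKM, slightly higher at 10 °C and day 1 and lowest at day 5, with a log2 ratio to 20 °C of -0.83 (-0.95 to -0.71) that missed the 2-fold mark.

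Few members were higher in the cold. *clec-146* (chrII:13590641-13593774) measured 4.57, 4.48, 7.39, 13.8 and 16.2 FPKM, and its neighbour *clec-145* (chrII:13588776-13590561) 0.426, 0.484, 1.13, 2.13 and 1.92. The log2 ratios from 20 °C to day 5 were 1.81 (1.49 to 2.13) and 1.94 (1.40 to 2.46). Both were flat at 10 °C and had risen by day 3, after which neither changed beyond its counting limits. Of the exon bases of *clec-145*, 16.7% overlap the gene *Y48E1B.8*.

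*clec-264* (chrV:20847702-20850701) measured 2.48, 2.23, 3.60, 6.10 and 7.75 FPKM, with a log2 ratio of 1.605 to day 5 (1.32 to 1.88), and was higher at each step within 4 °C. *clec-221* (chrV:10953453-10954434) measured 0.574, 0.651, 1.94, 2.01 and 1.52 FPKM, with a ratio of 1.44 on entry into 4 °C (0.78 to 2.09) and 1.26 to day 5 (0.52 to 1.99). It reached its plateau within the first day. *clec-5* (chrIII:4881888-4883606) measured 5.16, 4.27, 4.55, 9.58 and 4.63 FPKM, a pulse at day 3 with log2 ratios of 1.06 into it (0.85 to 1.26) and -1.03 out of it (-1.25 to -0.81). It was the only member called in the step from day 3 to day 5.

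*clec* genes often lie side by side. With gaps of at most 10 kb, 155 of the 239 genes formed 47 runs, and 9 of these runs held 2 or more members, 22 members in all. In 5 runs every member was 2-fold lower from 20 °C to day 5, in 1 run (*clec-145* and *clec-146*) every member was 2-fold higher, and in 0 runs did members change in both directions. Over all 56 members, 51.8% were lower and 4 were higher, 2 of these 4 in that 1 run, so runs with both directions had little room to occur. Whether neighbours changed alike more often than other members was not tested. The run of *clec-57*, *clec-56* and *clec-54* (chrV:14469231-14482317) had log2 ratios of -2.62, -3.68 and -2.47, and that of *clec-83*, *clec-84* and *clec-85* (chrIV:2823746-2855456) -1.85, -1.40 and -1.12. *clec-85* is known as a target of PMK-1, and 27.7% of its exon bases overlap the gene *Y54G2A.40*.

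Neighbours could also differ. In the run from *clec-62* to *clec-66* (chrII:12893062-12906644), the ratios were -0.04 for *clec-62*, -0.36 for *clec-63*, -0.45 for *clec-65* and -2.15 for *clec-66*, so that 1 of 4 members was 2-fold lower. *clec-222* measured -0.64 beside -1.89 for *clec-223*, and *clec-137* 0.20 beside -1.64 for *clec-139*. By chromosome, 10 of the 14 members on IV (71.4%) were 2-fold lower, beside 15% of all genes there, 11 of 17 on V (64.7%, beside 23.2%) and 4 of 13 on II (30.8%, beside 16.4%), while I, III and X held 3 to 5 members each.

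**Figure D4:**
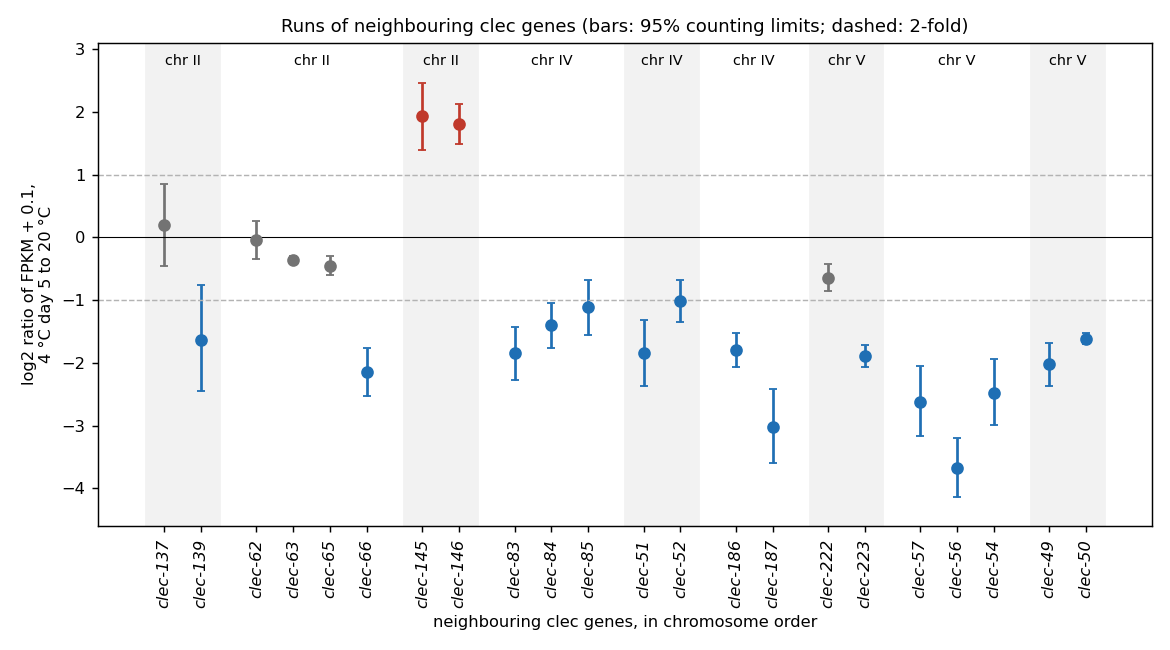
Log2 ratio of FPKM + 0.1 from 20 °C to 4 °C day 5 (y axis) of the 22 members in the 9 runs of neighbouring *clec* genes, in chromosome order, with bars for 95% counting limits. Blue points are at least 2-fold lower, red points at least 2-fold higher and grey points neither, and shading separates the runs. The pair *clec-145* and *clec-146* is the only run above 0 throughout, and in 5 runs all points lie at or below -1.

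The other 183 *clec* genes stayed under 1 FPKM in every condition. Of these, 9 had no read at all and 58, these 9 included, had fewer than 3 reads in each condition, while 74 had at least 3 reads in each. The members nearest the limit were *clec-137*, *clec-139* and *clec-205*, with maxima of 1.14, 1.07 and 1.01 FPKM, and the genes just outside it were *clec-208*, *clec-12* and *clec-26*, with 0.963, 0.907 and 0.888. Some of the family's best known genes were among them, named here for their roles after their values were seen. *clec-60*, which has been linked to defence against *Staphylococcus aureus*, had 4 to 13 reads per condition, *clec-42*, studied with *clec-41* for defence against *Bacillus thuringiensis*, had 2 to 11, *clec-39*, needed like *clec-49* against *Serratia marcescens*, had 0 to 2, and *clec-38*, which acts in the growth of axons, had 1 to 4.

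The study compared cold-induced genes with genes that depend on IRE-1, the sensor of the unfolded protein response in the endoplasmic reticulum. 1 *clec* gene was in the 3 IRE-1-dependent lists given, *clec-121* in that for tunicamycin, a drug that causes such stress, and it was no member. It measured 0.00837, 0.0238, 0.156, 0.140 and 0.113 FPKM from 1, 3, 20, 17 and 12 reads. The counting limits of 10 °C (0.00811 to 0.0701 FPKM) and day 1 (0.101 to 0.242 FPKM) did not overlap, and the level stayed low throughout.

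Genes of the known regulators were read beside them. None of the 7 measured genes of the p38 PMK-1 cascade was 2-fold lower from 20 °C to day 5, and 2 were higher, *tir-1* (2.36, 2.48, 6.58, 6.49 and 6.23 FPKM), which encodes the adaptor at the head of the cascade, and *vhp-1*, which encodes a phosphatase of the pathway. *atf-7*, the transcription factor at its end, measured 45.3, 54.7, 57.3, 60.6 and 51.3 FPKM. Of 16 other immune and stress regulators past 1 FPKM, 2 were higher and 3 lower (18.8%), with a median of 0.02. Of all genes, 5.4% were higher and 16.7% lower. Named by their calls, the higher were *pqm-1* and *cebp-1* and the lower *elt-2*, *elt-3* and *fshr-1*, with log2 ratios of -1.06, -1.84 and -1.49. The intestinal stress regulator *pqm-1* rose from 4.98 FPKM at 20 °C to 9.84 at 10 °C and 65.7 at day 1, and stood at 34.6 at day 5. *xbp-1*, the factor downstream of IRE-1, measured 92.7, 103, 115.2, 93.0 and 84.2.

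Of other families linked to defence, immune response genes and lysozyme and saposin-like genes were more often lower than higher, and galectins were even. From 20 °C to day 5, 16.7% of all genes were 2-fold lower and 5.4% higher. Among 11 immune response genes past 1 FPKM, 5 (45.5%) were 2-fold lower and 1 higher, with a median log2 ratio of -0.70. Named by their calls, the lower were *dod-17*, *dod-24*, *irg-4*, *sysm-1* and *K08D8.5*. *irg-1*, a gene induced by infection, measured 0.503, 0.653, 3.21, 1.03 and 0.773 FPKM, highest at day 1, and the lysozyme gene *lys-2*, the most abundant of this list, 11.4, 25.3, 29.6, 16.7 and 13.8. Among 26 genes of lysozymes and saposin-like proteins, 9 (34.6%) were lower and 1 higher, with a median of -0.65. The lower genes include *ilys-5*, *lys-4* and *lys-1* (log2 ratios of -3.07, -1.76 and -1.71), named after their values were seen. The higher gene was *lys-3*, at 0.0673, 0.203, 1.18, 1.75 and 0.895 FPKM, while *spp-5*, a saposin-like gene and the most abundant, measured 423, 344, 403, 336 and 420.4 FPKM. The 11 galectins, sugar-binding proteins unrelated to C-type lectins in fold, had 2 lower and 2 higher, with a median of 0.21. Their largest change on entry into 4 °C was that of *lec-2*, at 26.6, 27.3, 95.04, 232 and 204 FPKM, and the most abundant, *lec-6*, measured 75.7, 98.3, 221.5, 212 and 212.

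Because many *clec* genes are expressed in the intestine, markers of that tissue were read beside them. From 20 °C to day 5, 5 of 12 intestine markers (41.7%) were 2-fold lower and 0 higher, with a median log2 ratio of -0.91 and none at 0. Their summed FPKM was 1790, 1758, 1727, 1530 and 849.6, a sum led by *vit-2*. Without *vit-2*, the other 11 markers summed to 972, 906, 778, 655 and 539.7, so that day 5 stood at 55.5% of 20 °C. The summed FPKM of all 56 *clec* members at day 5 was 81.1% of that at 20 °C. For the 53 members other than the 3 most abundant it was 53.4%. These shares depend on which abundant genes are kept in each sum. Set against the summed FPKM of all genes, the 56 members made up 0.254% at 20 °C and 0.158% at day 5. The 5 markers called lower were *elt-2*, *ges-1*, *pept-1*, *vha-6* and *vit-2*, listed after their values were seen. *pept-1*, the intestinal transporter of small peptides, measured 14.2, 14.4, 3.51, 2.01 and 1.24 FPKM, and the yolk gene *vit-2* 818, 852, 949, 875 and 309.7. The part of a change in intestinal RNA in the lower *clec* levels was not tested.

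Markers of other tissues were also present and mostly changed less. Of the markers past 1 FPKM, 0 of 12 for the germline, 0 of 8 for neurons, 1 of 8 for body wall muscle, 1 of 6 for the pharynx and 4 of 6 for the epidermis were 2-fold lower from 20 °C to day 5. Their median log2 ratios were -0.35, -0.08, -0.38, -0.17 and -1.10, in that order, and 0 markers of these tissues were 2-fold higher.

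**Figure D5:**
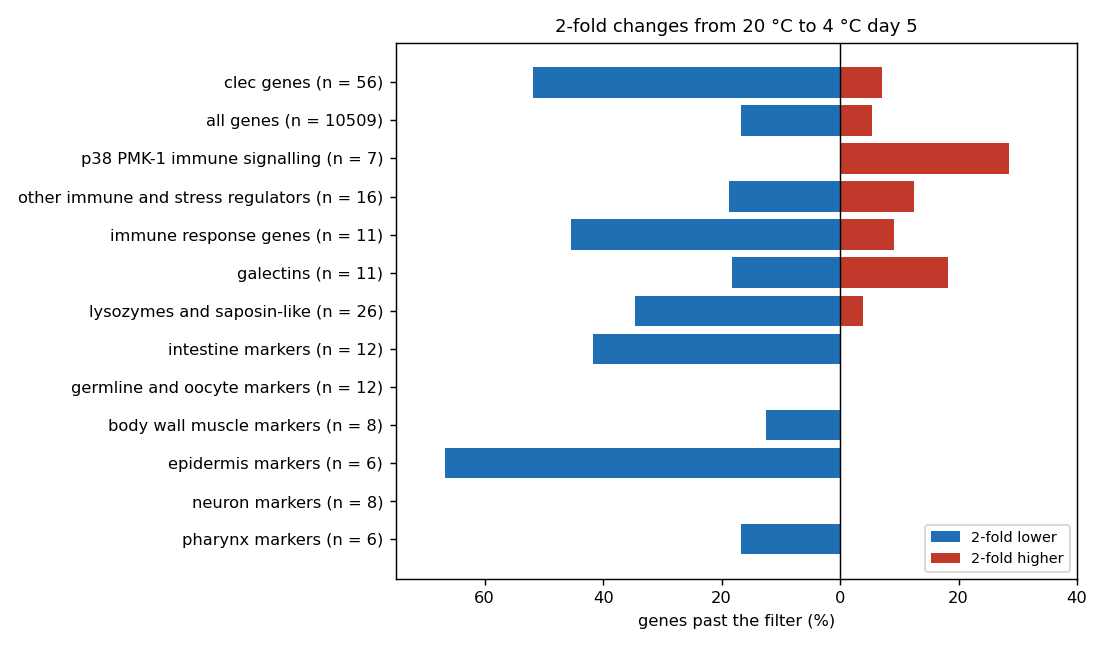
Share of genes past 1 FPKM (x axis, percent) that were at least 2-fold lower (blue, to the left) or 2-fold higher (red, to the right) from 20 °C to 4 °C day 5, for the *clec* genes, all genes, related immune lists and tissue markers, with the number of genes in each. The *clec* genes had 51.8% lower, beside 16.7% of all genes, 41.7% of intestine markers and 66.7% of the 6 epidermis markers.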

How the data were processed

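Total RNA was extracted from whole animals, and libraries were made with the ScriptSeq v2 kit. Per the study's methods and the submitters' processing notes, the authors trimmed reads with fastp 0.23.4, aligned them to WBcel235 with STAR 2.7.11b and processed them in the ORFik pipeline. Annotation release and use of strand are not given in the sources used here. The deposited values are FPKM per transcript, 1 column per condition, with no replicate columns, and 1 further column, which matched no sample, was not used. FPKM were scaled to the total of reads counted on transcripts, which the recovered reads below matched. Transcripts of a gene share reads, so 1 transcript stood for each gene.

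Reads were recovered as whole multiples of the value of 1 read, from FPKM and the exon lengths of Ensembl release 115 (100% of values whole within 0.01 reads in each condition). Exon overlaps, coordinates and runs came from the same annotation. Ratios were computed over all 10509 genes with 1 FPKM in any condition, with a pseudocount of 0.1 and a call at 2-fold, and the calculation was tested on simulated data. Python 3.11.15, matplotlib 3.10.9, scipy 1.17.1, pandas 2.3.3 and numpy 2.4.6 were used.

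The members, the gene lists and the rule for genes given in full were chosen with earlier results of these data known. The rule covered the 10 highest by mean FPKM, those changed 2-fold on entry into 4 °C or 4-fold in any comparison, and members of the IRE-1-dependent lists. From each other list, the gene of highest mean level and that of the largest change on entry into 4 °C were to be given, which was done for the immune lists and the intestine. Other tissues have counts only. *clec-5*, *clec-41*, *clec-83*, *clec-146*, *clec-196*, *clec-205*, *clec-223*, *clec-264* and *clec-266* were given in addition, after their values were seen. Alternatives covered the pseudocount, the filter, the threshold, centring and the choice of transcript.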

Additional observations from a re-analysis of the deposited data

How the results depend on the processing

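Alternative settings moved counts of calls. No called ratio changed sign, but another pseudocount or filter, or counting identical genes once, cannot change a sign, so under these settings this is no test. The shares in parentheses are those of the members, each beside that of all genes under the same setting. With a pseudocount of 1 FPKM, 1 was lower (1.79%, beside 0.19%) and 1 higher (1.79%, beside 0.466%) from 20 °C to 10 °C, 5 lower (8.93%, beside 2.17%) and 0 higher (beside 3.47%) on entry into 4 °C, 3 lower (5.36%, beside 2.26%) and 0 higher (beside 0.79%) from day 1 to day 3, and 0 lower (beside 1.53%) from day 3 to day 5. With 0.01 FPKM, 2 were lower (3.57%, beside 6.19%) from day 3 to day 5. Without a filter, over 239 genes, 4 were lower (1.67%, beside 0.936%) at 10 °C and 19 (7.95%, beside 4.52%) on entry, 3 were higher (1.26%, beside 1.42%) from day 1 to day 3, and from 20 °C to day 5 there were 43 lower (18%, beside 13.5%) and 9 higher (3.77%, beside 4.22%). With a filter of 5 FPKM, leaving 34 members, 1 was lower (2.94%, beside 0.433%) and 1 higher (2.94%, beside 1.01%) at 10 °C, 5 lower (14.7%, beside 2.6%) and 0 higher (beside 4.6%) on entry, 7 lower (20.6%, beside 3.85%) from day 1 to day 3, and 17 lower (50%, beside 9.7%) and 2 higher (5.88%, beside 4.36%) from 20 °C to day 5. At 1.5-fold, 5 were lower (8.93%, beside 3.11%) at 10 °C, 18 lower (32.1%, beside 11.8%) and 6 higher (10.7%, beside 9.57%) on entry, 24 lower (42.9%, beside 10.7%) and 4 higher (7.14%, beside 3.84%) from day 1 to day 3, and 6 lower (10.7%, beside 14.1%) from day 3 to day 5. At 4-fold, 0 were lower (beside 0.0285%) and 1 higher (1.79%, beside 0.219%) at 10 °C, 2 lower (3.57%, beside 1.06%) and 0 higher (beside 1.88%) on entry, 0 lower (beside 0.771%) and 0 higher (beside 0.409%) from day 1 to day 3, 0 lower (beside 0.295%) from day 3 to day 5, and 15 lower (26.8%, beside 7.1%) and 0 higher (beside 2.24%) from 20 °C to day 5. Centring, summing over transcripts (60 members, 31 lower from 20 °C to day 5), the longest transcript (55 members, 28 lower) and counting identical genes once kept every count within 1.5 times. Of the log2 ratios of the genes given by rule, 35 moved beyond their counting limits, 27 of them with the pseudocount of 1 FPKM, 2 with 0.01 and 6 with centring, and 383 stayed within. Those that stayed within include 55 without a filter, 33 with a filter of 5 FPKM and 55 with identical genes counted once. These settings leave a gene's ratio unchanged by construction. Leaving out replicates was not run. No paired analysis was possible because the table gives a single value for each condition. Variation between cultures cannot be seen in these values, so a small change with narrow limits, as in *clec-91*, has no replicate check, and genes with few reads, such as *clec-205*, are limited by depth as well.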
